A study of Mus musculus with 9 samples.

Results

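The NMDA and AMPA receptors are the main fast glutamate receptors of neurons, and the 10 genes described here encode 6 NMDA receptor subunits (Grin1, Grin2a, Grin2b, Grin2c, Grin2d and Grin3a) and the 4 AMPA receptor subunits (Gria1 to Gria4). They were taken by symbol from a table of 17482 genes, and all 10 passed the filter on low values that left 15251 genes for testing. Expression was measured by bulk RNA sequencing of mouse tumour tissue at postnatal day 8 or 9, recorded under the tissue name MB, in 9 libraries that form 3 groups of 3. All 3 groups carry the alleles fSMO-M2 and hGFAPcre, so the activated Smoothened allele and the Cre driver, which is active in neural progenitors, are shared by controls as well. The SG tumours carry these alone, and the YSGr and YSGnr tumours carry fYap1 in addition and are recorded as rescued (YSGr) or non-rescued (YSGnr), with no definition of rescue in the labels. Sex and litter are not recorded either. Whether the 3 libraries of a group come from different animals is not stated, so their spread, on which every p-value rests, may be technical. The exception is YSGnr, where sex-linked transcripts, given below, place replicate 1 in another animal than replicates 2 and 3.

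An NMDA receptor needs the obligatory subunit GluN1, the product of Grin1, together with GluN2 subunits that set its kinetics and its block by magnesium. In cerebellar granule neurons, the subunit made in immature cells is GluN2B, and maturing cells add GluN2A and GluN2C, a change known as the subunit switch. GluN3A, encoded by Grin3a, is a subunit of juvenile neurons that lowers calcium entry. AMPA receptors are built from GluA1 to GluA4, and receptors that contain the RNA-edited GluA2, the product of Gria2, pass little calcium. Bergmann glia of the cerebellum use GluA1 and GluA4, and progenitors of oligodendrocytes have AMPA receptors as well.

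Grin2c was the member that differed most firmly between the groups, and its promoter is shown for that reason, beside that of Grin1, the other subunit called in YSGr, which was chosen after its values were seen. RefSeq tables of promoters on GRCm38.p6, the assembly of mm10, held 5 of the 10 members. The sequences are the 250 bases before the start site, on the minus strand, for Grin2c at chr11:115267244-115267493 and for Grin1 at chr2:25319188-25319437, and neither window overlaps a GENCODE exon. Capitals mark matches on either strand to the motifs searched.
Grin2c: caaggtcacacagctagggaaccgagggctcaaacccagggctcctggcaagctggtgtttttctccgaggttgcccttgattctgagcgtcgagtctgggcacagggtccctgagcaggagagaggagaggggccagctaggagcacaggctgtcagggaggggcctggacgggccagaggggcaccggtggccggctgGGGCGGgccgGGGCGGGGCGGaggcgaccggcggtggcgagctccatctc
Grin1: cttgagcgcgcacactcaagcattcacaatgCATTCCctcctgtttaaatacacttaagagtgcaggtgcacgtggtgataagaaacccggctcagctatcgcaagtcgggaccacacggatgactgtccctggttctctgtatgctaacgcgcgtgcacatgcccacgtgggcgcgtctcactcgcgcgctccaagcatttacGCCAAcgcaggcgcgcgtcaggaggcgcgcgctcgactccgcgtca
The Grin2c window holds 3 matches to the GC box GGGCGG, at 50, 40 and 35 bases before the start, the last pair sharing a base. At least 1 match was present in 32.7% and 3 or more in 8.47% of 32851 promoter windows of this length. The Grin1 window holds the TEAD motif GGAATG on the opposite strand 219 bases before the start (12.6% of windows) and the short NFI motif TTGGC on the opposite strand 46 bases before it (41.5%). No match to the full NFI motif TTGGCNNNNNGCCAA (0.0365% of windows) or the GLI motif TGGGTGGTC (0.225%) lies in these windows. A match describes letters only.

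Some facts of the series bear on every value below. The depth, back-calculated from the steps between low values, was an effective library size of 18.1 to 32.3 M reads (M, mega) in 8 libraries and 3.92 M in YSGnr replicate 1, where the transcripts Yam1 and Lars2 took 63.4% of the reads against 1.98% to 8.15% elsewhere. Yap1 fell from 5.06 ± 0.05 log2 CPM in SG (SD, n = 3, as for every mean ± SD below) to 3.51 ± 0.84 in YSGr and 2.45 ± 0.41 in YSGnr (limma, adjusted p = 0.0327 and 0.0131). CPM are counts scaled to library size, here with a small added count. Xist, made from the inactive X chromosome, was between 9.81 and 10.81 log2 CPM in the 3 YSGr libraries and YSGnr replicate 1. It was at most -0.25 in the others, so a difference between YSGr and SG cannot be told apart from a difference of sex. The Y-linked gene Ddx3y was at its lowest value in YSGnr replicate 1 and at 5.38 and 4.97 in replicates 2 and 3. The YSGnr spread thus includes a difference of sex. In every fit without YSGnr replicate 1, YSGr against YSGnr likewise sets Xist-high against Xist-low libraries. The part of sex in the calls gained there was not tested. Markers of granule neuron progenitors were present in all libraries, with 12 of 12 genes in the table and a summed level of 4208 to 4261 CPM in SG, 3526 to 3904 in YSGnr and 1560 to 3432 in YSGr. YSGr replicate 3 and YSGnr replicate 1 stood apart from the other libraries of their groups. The difference of a library from the SG mean also followed transcript length over 14603 genes, with a Spearman rho of -0.41 in YSGr replicate 3, -0.52 and -0.50 in YSGnr replicates 2 and 3, and between -0.11 and 0.17 in the other 6. In bulk tissue, fewer cells of a type and less RNA per cell cannot be told apart.

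Levels of different subunits were compared per kilobase of the longest GENCODE transcript. In SG the order, in log2 CPM per kilobase, was Gria4 (5.11), Gria1 (4.49), Grin1 (4.21), Gria2 (4.09), Gria3 (3.55), Grin3a (2.57), Grin2b (1.99), Grin2d (1.25), Grin2c (0.61) and Grin2a (-2.96). The SG libraries of Grin1 and Gria2 overlapped, and those of the other neighbours in the order did not. In SG, AMPA subunits and Grin1 stood above every GluN2 gene. With the length of all exons together Gria2 ranked above Grin1 and Grin2b above Grin3a. In YSGr the order began with Grin1 (5.35), Gria1 (5.19) and Gria4 (5.14), whose libraries overlapped. Grin2c, in the ninth place in SG, stood beside Grin2b and Grin3a in YSGr at 2.70, 2.70 and 2.69 log2 CPM per kilobase. By the length of all exons these were 2.66, 2.65 and 1.98, and Grin1 moved from the first to the third place in YSGr. In YSGnr Grin2c (1.64) and Grin2b (1.12) overlapped. Grin2a was the lowest member in all 3 groups.

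**Figure D1:**
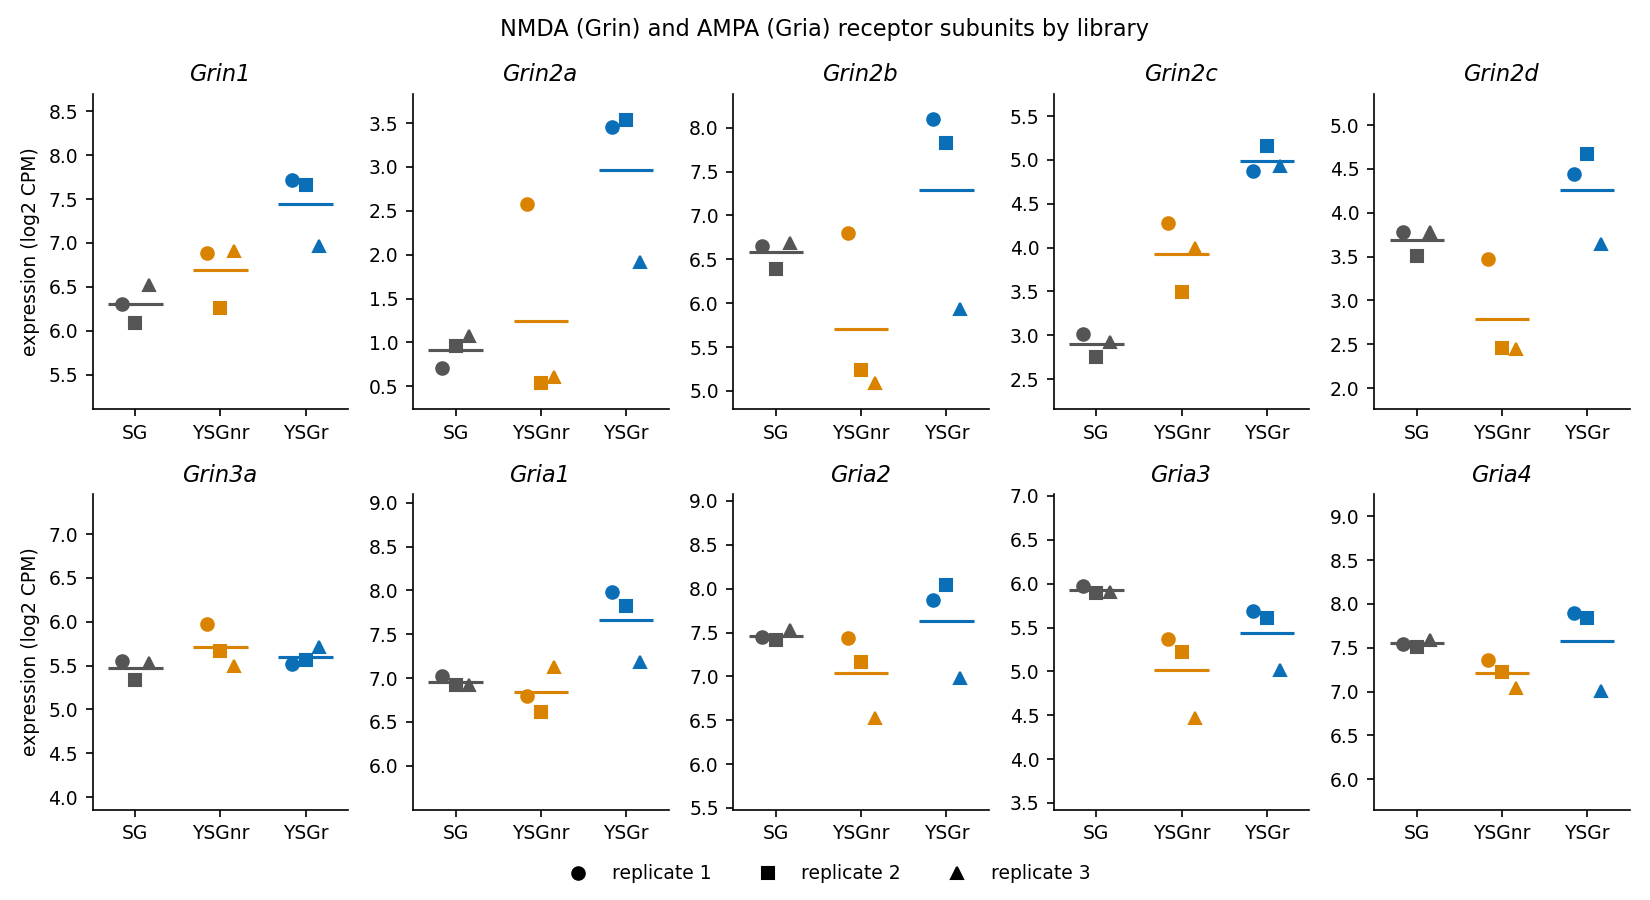
Expression of each subunit gene in log2 CPM (y axis, with an equal span in every panel) in the SG, YSGnr and YSGr libraries, with a marker shape for each replicate number and a line at the group mean. Grin2c separates the 3 groups without overlap, whereas for Grin2b the YSGr and YSGnr libraries range from 5.93 to 8.10 and from 5.08 to 6.80.

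Grin2c (ENSMUSG00000020734.13, chromosome 11, 115249169 to 115267243, GRCm38) rose in both groups with floxed Yap1. Its level was 3.02, 2.75 and 2.92 log2 CPM in SG, 4.28, 3.50 and 4.0 in YSGnr and 4.88, 5.16 and 4.93 in YSGr, in the order of replicates 1, 2 and 3. All YSGnr libraries lay above all SG libraries and below all YSGr libraries. These values rested on 145 to 242 reads in SG, 695 to 961 in YSGr and 76 to 332 in YSGnr. Grin2c was 4.27-fold higher in YSGr than in SG (log2 fold change 2.09, SE 0.21, limma adjusted p = 0.00129) and kept its call in each of the 20 alternative fits. It was 2.04-fold higher in YSGnr than in SG (log2 fold change 1.03, SE 0.21, limma adjusted p = 0.0356), and 2.09-fold higher in YSGr than in YSGnr (log2 fold change 1.07, SE 0.21, limma adjusted p = 0.0339).

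The call of Grin2c in YSGnr against SG was lost without SG replicate 1, 2 or 3 (limma adjusted p = 0.148, 0.154 and 0.152), YSGr replicate 1 or 2 (0.0601 and 0.0587) or YSGnr replicate 3 (0.132), and with the replicate number as a block (0.0518). These fits called between 0.125% and 2.24% of all genes, against 3.36% in the main fit. Without YSGnr replicate 1, Grin2c was 0.85 log2 units above SG and was called (limma adjusted p = 0.0214), in a fit that called 21.8% of all genes. The libraries left in that comparison were all low in Xist, and the part of sex in the Grin2c result was not tested. The call of Grin2c in YSGr against YSGnr was lost without SG replicate 1, 2 or 3 (0.0719, 0.0684 and 0.0737), YSGr replicate 1 or 2 (0.146 and 0.168) or YSGnr replicate 2 or 3 (0.102 and 0.108) and with the 6 libraries of these groups alone (0.155). These fits called between 0% and 0.0656% of all genes, against 5.97% in the main fit. With a length and GC trend removed the difference of Grin2c between YSGr and YSGnr was 0.65 and was called (0.038). With the replicate block in the same fit the call was lost (0.05006).

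Markers of differentiated granule neurons moved in the same order as Grin2c. All 10 were in the table and none at its lowest value, and their summed level was 748 to 896 CPM in SG, 899 to 1247 in YSGnr and 1342 to 2605 in YSGr. Of these 10 genes 6 were called higher in YSGr and 3 in YSGnr against SG, and none lower. Of all genes 6.58% and 1.19% were called higher and 3.97% and 2.17% lower. Purkinje cell markers, all 8 in the table, summed to 870 to 939 CPM in SG, 528 to 1057 in YSGnr and 1433 to 2496 in YSGr, and oligodendrocyte markers, all 7 in the table, to 591 to 1137, 823 to 1826 and 2412 to 3785. The part of these cell types in the Grin2c result was not tested. The genes whose log2 CPM followed Grin2c most closely over the 9 libraries were Cbln3, a cerebellin gene of granule neurons (Pearson r = 0.99), Mybpc3 (0.99) and Tmem59l (0.99). These are descriptions over 9 libraries that share their groups.

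Grin1 (ENSMUSG00000026959.13, chromosome 2, 25291181 to 25319187), the obligatory subunit, was 6.30, 6.09 and 6.52 log2 CPM in SG, 7.72, 7.66 and 6.96 in YSGr and 6.89, 6.26 and 6.91 in YSGnr. The YSGr libraries stood above all others, and the YSGnr libraries overlapped SG. Grin1 rose 2.21-fold in YSGr against SG (log2 fold change 1.14, SE 0.25, limma adjusted p = 0.0228). The call was lost without SG replicate 1, 2 or 3 (limma adjusted p = 0.0927, 0.099 and 0.0629) or YSGr replicate 1 or 2 (0.0963 and 0.1). These fits called between 2.15% and 2.73% of all genes, against 10.5% in the main fit. Against YSGnr the difference of 0.76 log2 units (SE 0.25) was not called (limma adjusted p = 0.0831), and without YSGr replicate 3 or YSGnr replicate 1 it was (1.00 and 0.86 log2 units, limma adjusted p = 0.00652 and 0.048). Against SG the YSGnr difference of 0.38 was not called (limma adjusted p = 0.346). Pan-neuronal markers, all 10 in the table and none at its lowest value, summed to 2134 to 2631 CPM in SG, 2180 to 2417 in YSGnr and 3979, 3724 and 2074 in YSGr replicates 1, 2 and 3, and their part in the Grin1 result was not tested. The antisense gene Grin1os overlaps Grin1 and was far lower, between 0.66 and 2.80 log2 CPM. The sources used here do not say whether strand was kept, so reads of the pair may be mixed.

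Grin2a (chromosome 16, 9567898 to 9995560), the GluN2 subunit of mature synapses, was the rarest member. It stood at 0.71, 0.95 and 1.07 log2 CPM in SG, at 3.45, 3.53 and 1.91 in YSGr and at 2.57, 0.54 and 0.61 in YSGnr. These correspond to 28 to 65 reads in SG, 84 to 319 in YSGr and 23 to 33 in YSGnr, so counting error is largest for this gene. All YSGr libraries were above SG, and only replicate 1 of YSGnr was. The difference of 2.06 log2 units in YSGr against SG (SE 0.59) missed the threshold (limma adjusted p = 0.0559) and passed it in 8 of 20 alternatives, at 2.58 without YSGr replicate 3 (limma adjusted p = 0.00923). It also passed without YSGnr replicate 1 (limma adjusted p = 0.0158) and with the length and GC trend removed, at 2.13 (limma adjusted p = 0.0118). In YSGnr against SG the value was 0.33 (SE 0.59, limma adjusted p = 0.743), and -0.34 without YSGnr replicate 1. YSGr stood 1.73 above YSGnr (SE 0.59, limma adjusted p = 0.09), and without YSGr replicate 3 or YSGnr replicate 1 the difference was called (2.25 and 2.39, limma adjusted p = 0.012 and 0.0172).

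Grin2b (chromosome 6, 135713233 to 136173511), the subunit of immature neurons, varied widely within the groups with floxed Yap1, with an SD of 1.18 log2 units in YSGr and 0.95 in YSGnr. It was 6.65, 6.39 and 6.69 log2 CPM in SG, 8.10, 7.83 and 5.93 in YSGr and 6.80, 5.23 and 5.08 in YSGnr. YSGr replicate 3 lay below SG and the other YSGr libraries above it, and YSGnr replicate 1 lay above SG and the other YSGnr libraries below it. No comparison was called, with 0.71 in YSGr and -0.87 in YSGnr against SG (SE 0.59, limma adjusted p = 0.501 and 0.36). The difference between YSGr and YSGnr was 1.58 (SE 0.59, limma adjusted p = 0.104). It was called without YSGr replicate 3 (2.26, limma adjusted p = 0.00454) and without YSGnr replicate 1 (2.13, limma adjusted p = 0.0293). Without YSGr replicate 3 the rise over SG was also called (1.38, limma adjusted p = 0.0456), and without YSGr replicate 1 it was 0.30 and not called (0.862). The fit without YSGr replicate 3 called 27.9% of all genes in YSGr against SG and 42.8% in YSGr against YSGnr.

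Grin2b has the longest transcript of the members, 24.06 kilobases, against 4.89 for Grin2c. With the length and GC trend removed, its differences were 0.73 in YSGr and -0.23 in YSGnr against SG and 0.96 between YSGr and YSGnr, and none was called (limma adjusted p = 0.204, 0.722 and 0.0934). The part of transcript length in the spread of Grin2b was not tested beyond this.

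Grin2d (chromosome 7, 45831883 to 45878378), a GluN2 subunit of early development and of interneurons, ran parallel to Grin2b, with a Pearson r of 0.94 over the 9 libraries. It was 3.79, 3.51 and 3.78 log2 CPM in SG, 4.44, 4.68 and 3.65 in YSGr and 3.47, 2.45 and 2.45 in YSGnr. The YSGnr libraries lay below all SG and YSGr libraries, and YSGr replicate 3 lay within SG. Grin2d was 2.76-fold higher in YSGr than in YSGnr (log2 fold change 1.47, SE 0.33, limma adjusted p = 0.0423). The call was lost without SG replicate 1, 2 or 3 (limma adjusted p = 0.0809, 0.0782 and 0.0826), YSGr replicate 1 or 2 (0.187 and 0.183) or YSGnr replicate 2 or 3 (0.124 and 0.138). Median scaling, quantile normalization and the 6 libraries alone ended it as well (0.0529, 0.05001 and 0.161), in fits that called 2.07%, 4.37% and 0% of all genes. The fits without a library in which the call was lost called at most 0.0656%, and the main fit 5.97%. Against SG, YSGr differed by 0.56 and YSGnr by -0.90 (limma adjusted p = 0.326 and 0.138), and the latter was called without YSGnr replicate 1 (-1.24, limma adjusted p = 0.0227). Summed markers of cerebellar interneurons, all 8 in the table, were 190 to 199 CPM in SG, 298 to 395 in YSGr and 158 to 201 in YSGnr. Their part in the Grin2d result was not tested.

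Grin3a (chromosome 4, 49661611 to 49845744) moved least of the NMDA subunits. Its 9 libraries lay between 5.34 and 5.97 log2 CPM, and the groups overlapped in every comparison. The differences were 0.12 in YSGr and 0.24 in YSGnr against SG and -0.12 between YSGr and YSGnr (SE 0.15, limma adjusted p = 0.673, 0.329 and 0.586). With the length and GC trend removed the rise in YSGnr against SG was 0.62 and was called (limma adjusted p = 0.0481), and with the replicate block in the same fit it was not (0.072).

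Among the AMPA subunits no comparison was called. Gria1 (chromosome 11, 57011387 to 57330244) was 7.03, 6.92 and 6.92 log2 CPM in SG, 7.98, 7.83 and 7.19 in YSGr and 6.80, 6.62 and 7.12 in YSGnr. All YSGr libraries were above all others, by a mean of 0.71 log2 units over SG (SE 0.21, limma adjusted p = 0.067) and 0.82 over YSGnr (SE 0.21, limma adjusted p = 0.0547). Without YSGr replicate 3 both differences were called, at 0.95 and 1.06 (limma adjusted p = 0.00294 and 0.00144), and without YSGnr replicate 1 the second was, at 0.79 (0.043). The difference from SG was also called with the length and GC trend removed, at 0.72 (0.0353), but not with the replicate block in the same fit (0.0621). The fit without YSGr replicate 3 called 27.9% of all genes against SG and 42.8% against YSGnr. Without SG replicate 1, 2 or 3 or YSGr replicate 1 or 2, the limma adjusted p of Gria1 against SG was between 0.172 and 0.234. Gria1 was followed most closely by Mfn2 and by Cacng8, a gene of an AMPA receptor auxiliary subunit (Pearson r = 0.99 and 0.98, 9 libraries).

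Gria3 (X chromosome, 41400854 to 41678601) lay below SG in every library with floxed Yap1. It was 5.98, 5.90 and 5.90 log2 CPM in SG, 5.69, 5.60 and 5.02 in YSGr and 5.36, 5.23 and 4.47 in YSGnr. The mean difference from SG was -0.49 in YSGr (SE 0.25, limma adjusted p = 0.259) and -0.91 in YSGnr (SE 0.25, limma adjusted p = 0.076). The YSGnr difference was called without YSGr replicate 3 (-0.91, limma adjusted p = 0.0265) and without YSGnr replicate 1 (-1.08, limma adjusted p = 0.0263). Removing the length and GC trend left -0.57, not called (limma adjusted p = 0.0625). Of the X-linked Gria3, the YSGr libraries and YSGnr replicate 1, all high in Xist, held between 5.02 and 5.69 log2 CPM, and the part of sex in its values was not tested.

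Gria2 (chromosome 3, 80681450 to 80802835) was 7.45, 7.42 and 7.53 log2 CPM in SG, 7.88, 8.04 and 6.98 in YSGr and 7.44, 7.16 and 6.52 in YSGnr. Gria4 (chromosome 9, 4417896 to 4796234) was 7.54, 7.51 and 7.59 in SG, 7.90, 7.83 and 7.01 in YSGr and 7.36, 7.23 and 7.04 in YSGnr. For both genes YSGr replicates 1 and 2 lay above SG and replicate 3 below it. The differences of Gria2 were 0.16 in YSGr and -0.43 in YSGnr against SG (SE 0.30, limma adjusted p = 0.79 and 0.381), and the second became 0.28 with the length and GC trend removed. Those of Gria4 were 0.03 and -0.34 (SE 0.23, limma adjusted p = 0.952 and 0.352). Without YSGr replicate 3, YSGr stood 0.92 above YSGnr for Gria2 and 0.66 for Gria4, and both were called (limma adjusted p = 0.0142 and 0.00454). That fit called 42.8% of all genes. With all 9 libraries the differences were 0.59 and 0.37 and were not called (limma adjusted p = 0.189 and 0.258). Summed astrocyte and Bergmann glia markers, all 9 in the table, were 1828 to 1912 CPM in SG, 1554 to 2688 in YSGr and 1032 to 1558 in YSGnr. Their part in the AMPA subunit values was not tested.

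In all, 2 of the 10 members were called higher in YSGr against SG, where limma called 10.5% of all 15251 genes, 6.58% higher and 3.97% lower. In YSGnr against SG 1 of 10 was called higher, against 3.36% of all genes (1.19% higher, 2.17% lower). In YSGr against YSGnr 2 of 10 were called higher, against 5.97% (5.09% higher, 0.879% lower). No member was called lower. With 10 members, 1 or 2 calls stand on few genes. The median log2 fold change of the members was 0.64, -0.23 and 0.79 in these comparisons, and that of all genes -0.02, -0.01 and 0.01. By library, the median difference of the members from the SG mean was 0.89, 0.93 and 0.09 in YSGr and 0.10, -0.33 and -0.41 in YSGnr. With the length and GC trend removed it was 0.65, 0.75 and 0.38 in YSGr and 0.14, 0.06 and 0.32 in YSGnr, so the sign turned in YSGnr replicates 2 and 3. In YSGr against SG 4 members lay above without overlap and 1 below (36.8% of all genes did not overlap, 19.5% above and 17.3% below). In YSGnr against SG 1 lay above and 3, Grin2d, Gria3 and Gria4, below (38.2%, 16.9% above and 21.3% below), and in YSGr against YSGnr 4 lay above and 0 below (22.5%, 15% above and 7.46% below). The counts depended on the library left out: without YSGr replicate 3, 5, 2 and 8 members were called in these comparisons, against 27.9%, 17.3% and 42.8% of all genes. Without YSGnr replicate 1 they were 3, 3 and 6, against 15.7%, 21.8% and 31% of all genes, and in the other 7 omissions at most 2, 1 and 0.

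**Figure D2:**
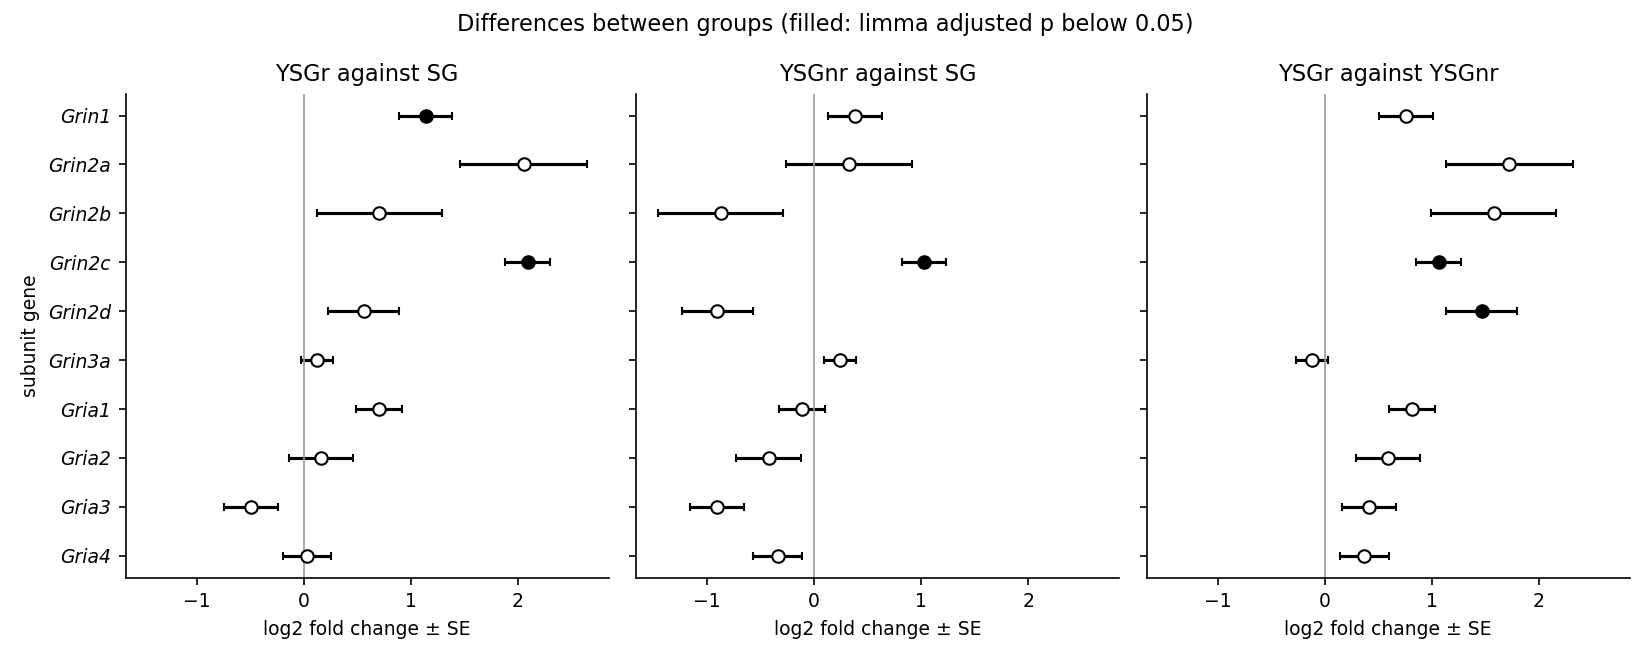
Log2 fold change (x axis) with its SE for each subunit gene (y axis) in the 3 comparisons, with filled points where the limma adjusted p was below 0.05. Filled points mark Grin1 and Grin2c in YSGr against SG, Grin2c in YSGnr against SG, and Grin2c and Grin2d in YSGr against YSGnr.

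Several members followed each other over the 9 libraries. Grin2b, Grin2d, Gria2 and Gria4 rose and fell together, with a pairwise Pearson r between 0.81 and 0.94, and Grin1 went with Grin2c (0.90), Grin2a (0.88) and Gria1 (0.88). These were not separate patterns, as Grin2a also went with Grin2b (0.83) and Grin2d (0.78), and Grin2c and Gria1 had an r of 0.69. The lowest pairwise r was that of Grin2c and Gria3, at -0.40. These values, too, describe 9 libraries that share their groups. YSGr replicate 3 lay below the mean of YSGr replicates 1 and 2 for most members, with a difference of -2.03 log2 units for Grin2b, -1.58 for Grin2a and between -0.98 and -0.63 for Grin1, Grin2d and the AMPA subunits. For Grin2c the same difference was -0.09, and for Grin3a 0.17. YSGnr replicate 1 lay above the mean of the other YSGnr libraries by 2.00 for Grin2a, 1.64 for Grin2b and 1.02 for Grin2d.

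**Figure D3:**
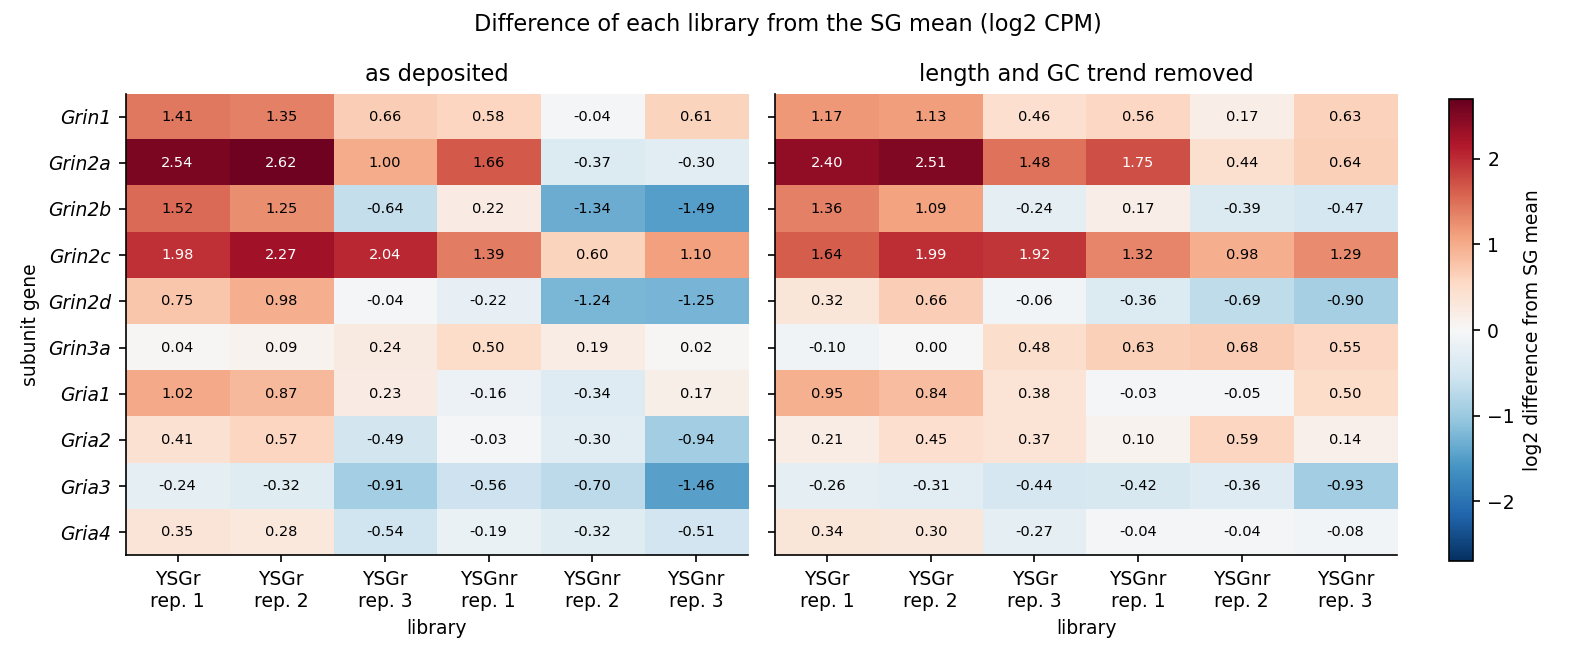
Difference of each YSGr and YSGnr library (x axis) from the SG mean in log2 CPM, shown as colour and as a number for each subunit gene (y axis), as deposited on the left and with a length and GC trend removed on the right. Grin2c is above SG in all 6 libraries in both panels, whereas Grin2b changes sign between libraries of each group.

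Ratios of subunits within a library do not depend on its scaling, and 5 were set out for the subunit switch and for the share of Gria2. Grin2a stood at 1 CPM per 61.5, 43.3 and 49.2 CPM of Grin2b in SG, per 25, 19.6 and 16.2 in YSGr and per 18.7, 25.9 and 22.3 in YSGnr. All 6 libraries with floxed Yap1 had a higher Grin2a to Grin2b ratio than the 3 SG libraries, YSGr replicate 3 and YSGnr replicate 1 included. The log2 ratio was higher by 1.35 in YSGr and by 1.20 in YSGnr. The exact two-sided permutation p was 0.1 in each, the smallest that 3 against 3 libraries allow, and 0.375 adjusted over 15 ratio comparisons.

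Grin2c stood at 1 CPM per 12.4, 12.5 and 13.6 CPM of Grin2b in SG, per 9.33, 6.34 and 2.00 in YSGr and per 5.73, 3.34 and 2.12 in YSGnr. The ratio was again higher in all 6 libraries with floxed Yap1, by 1.39 log2 units in YSGr and 1.90 in YSGnr (exact permutation p = 0.1 in each, adjusted 0.375). With the length and GC trend removed, the 2 ratios differed from SG by 1.39 and 1.12 in YSGr and by 1.17 and 1.43 in YSGnr, in the order Grin2a and Grin2c over Grin2b. YSGr and YSGnr overlapped in both ratios (exact permutation p = 0.6 in each).

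The other 3 ratios overlapped between the groups in every comparison. Grin2c over Grin2a differed from SG by 0.04 in YSGr and 0.70 in YSGnr, and Grin2d over Grin2b by -0.14 and -0.03 (exact permutation p between 0.4 and 1.0). Gria2 over the sum of Gria1, Gria3 and Gria4 was -1.08 ± 0.05 log2 units in SG, -1.14 ± 0.18 in YSGr and -1.18 ± 0.43 in YSGnr (exact permutation p = 0.5 and 1.0 against SG, where 0.1 is the smallest possible). With the length and GC trend removed, its difference from SG was 0.04 in YSGr and 0.32 in YSGnr.

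**Figure D4:**
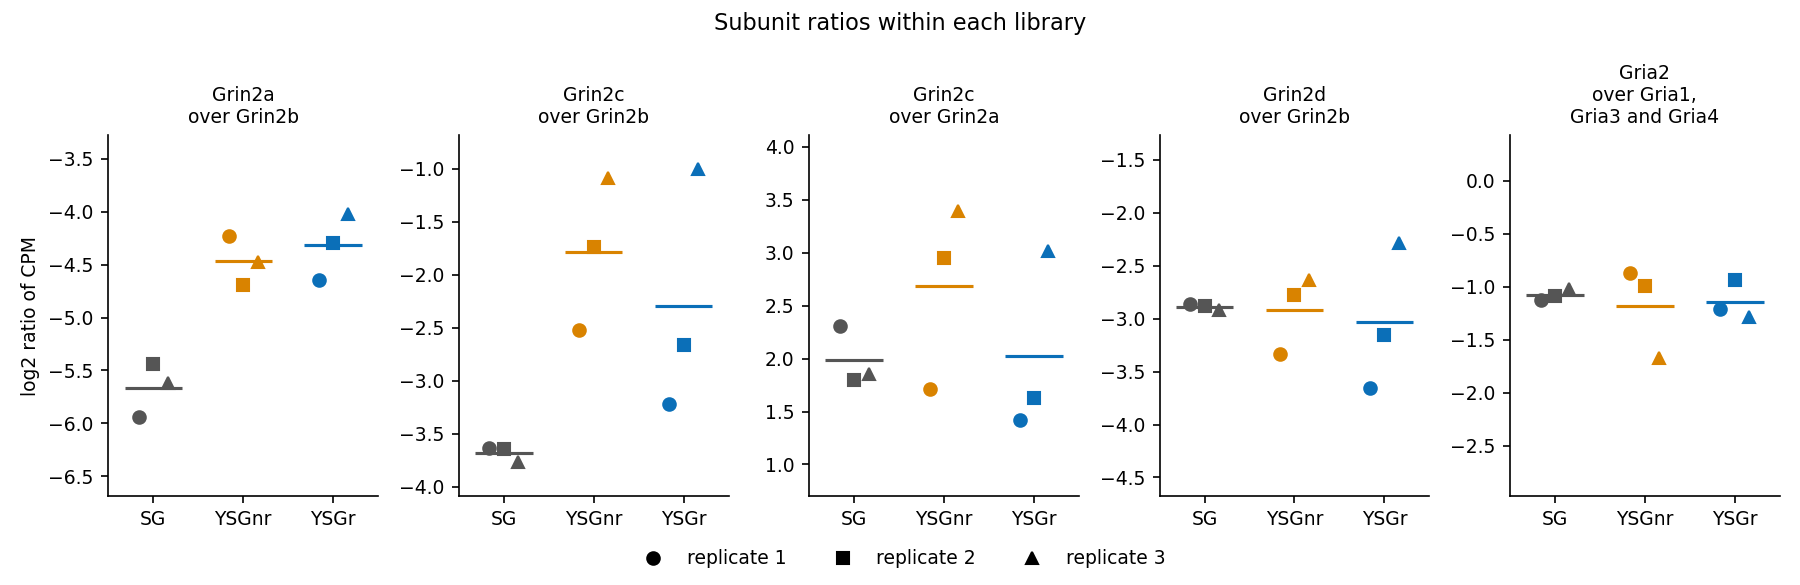
Log2 ratio of CPM within each library (y axis, with an equal span in every panel) for 5 subunit ratios in SG, YSGnr and YSGr, with a marker shape for each replicate number and a line at the group mean. The Grin2a to Grin2b ratio is between -4.69 and -4.02 in the 6 libraries with floxed Yap1 and between -5.94 and -5.44 in SG.

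The partners of these receptors were read from 7 lists. For each count of calls below, the shares of all genes called higher were 6.58% in YSGr and 1.19% in YSGnr against SG. In YSGr against YSGnr the share was 5.09%. The shares called lower were 3.97%, 2.17% and 0.879% in the same order. Of 14 genes of AMPA receptor auxiliary subunits 5 were called higher in YSGr against SG and none lower, with a median log2 fold change of 0.38. The difference was positive in 8 of the 14. Gsg1l differed by -1.86 log2 units, with all YSGr libraries below SG, and was not called (limma adjusted p = 0.0831). Shisa8, which encodes an auxiliary subunit of the CKAMP family, was 5.27-fold higher (limma adjusted p = 0.000918), Prrt1 3.25-fold (0.0229) and Cnih2, a cornichon that aids receptor export, 1.80-fold (0.02). In YSGnr against SG Shisa8 rose 2.18-fold (0.0324), and Cacng3 and Cacng4, members of the stargazin family, fell by 1.09 and 0.86 log2 units (0.0411 and 0.0293). In YSGr against YSGnr 4 were called higher and 1 lower, with Shisa6 4.19-fold, Prrt1 3.22-fold and Shisa8 2.42-fold higher (limma adjusted p = 0.0381, 0.0403 and 0.0272).

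Of 19 genes of receptor scaffolds and trafficking 6 were called higher in YSGr against SG, 1 in YSGnr against SG and 7 in YSGr against YSGnr. None was called lower. In YSGnr against SG 5 of the 19 differences were positive. There 3 genes lay above SG and 6 below without overlap, against 16.9% and 21.3% of all genes. Homer2, a scaffold that ties glutamate receptors to calcium stores, rose 1.76-fold in YSGr and 1.48-fold in YSGnr (limma adjusted p = 0.0055 and 0.0378), Dlgap1 1.90-fold and the trafficking ATPase gene Nsf 1.80-fold in YSGr (0.0358 and 0.0147). The postsynaptic scaffold genes Shank1, Shank2 and Shank3 were 4.87-, 3.38- and 3.02-fold higher in YSGr than in YSGnr (limma adjusted p = 0.0465, 0.0396 and 0.0272). The median log2 fold change of the list was 0.72, -0.33 and 0.99 in the 3 comparisons.

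Of 8 genes of calcium/calmodulin kinases and RNA editing enzymes 2 were called higher in YSGr against SG, Camk2b 2.79-fold and Camk2a 2.05-fold (limma adjusted p = 0.00722 and 0.0224). None was called in YSGnr against SG. In YSGr against YSGnr Camk2a (3.11-fold), Camk2b (2.11-fold) and Adarb1 (2.71-fold), the enzyme known to edit Gria2 transcripts, were higher (limma adjusted p = 0.023, 0.0397 and 0.0475). Gene-level values do not show editing.

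Of 7 tested metabotropic glutamate receptor genes Grm4, a receptor of granule cell terminals, rose 5.64-fold in YSGr against SG (limma adjusted p = 0.00961) and was 4.51-fold higher in YSGr than in YSGnr (0.0339). None was called in YSGnr against SG, where Grm3 had the largest difference, -0.81 (0.206). Of 8 genes of glutamate transporters and release 2 were called, both higher, in each comparison. The vesicular transporter gene Slc17a7 was 7.69-fold higher in YSGr and 2.72-fold in YSGnr than in SG (limma adjusted p = 0.00204 and 0.0482), and the Purkinje cell transporter gene Slc1a6 3.29- and 1.89-fold (0.000582 and 0.0111). In YSGr they were 2.83- and 1.74-fold higher than in YSGnr (0.0399 and 0.0267).

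Of 7 genes of kainate receptors and their auxiliary subunits none was called against SG, where Neto1 had the largest differences, -0.79 in YSGr and -1.68 in YSGnr (limma adjusted p = 0.323 and 0.0742), and Grik3 was 2.60-fold higher in YSGr than in YSGnr (0.0396). Of the 3 neuronal pentraxin genes, which encode proteins that cluster AMPA receptors, Nptxr was 1.85-fold higher in YSGr than in SG and than in YSGnr (0.03 and 0.0456). None was called in YSGnr against SG, where Nptx1 had the largest difference, -0.73 (0.121). Over the 7 lists 17, 6 and 20 of 66 tested genes were called in the 3 comparisons, against 10.5%, 3.36% and 5.97% of all genes. Over the alternatives between 0 and 59 were called. Without YSGr replicate 3 the list genes called were 36, 21 and 54, against 27.9%, 17.3% and 42.8% of all genes. Without SG replicate 1, 2 or 3 they were between 6 and 7 in YSGr against SG, against 2.15% to 2.73% of all genes. In the other comparisons they were then 0.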

How the data were processed

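RNA was isolated from tumour tissue with a Triazol protocol and sequenced by BGI on DNBseq, per the labels' protocols. The submitters' processing notes name Trimmomatic, RSEM, Bowtie2, Picard, edgeR and mm10. The annotation used is not stated. The authors deposited log2 CPM values for 17482 genes in 9 libraries. Each library has the same lowest value, -3.52, which implies an added count of 2.00 reads on average. Only 59.3% to 69.6% of low values were whole reads within 0.02, so no count test was run. Fold changes of low genes are understated by the added count.

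Groups and replicate numbers came from sample titles. Genes above 0 log2 CPM in at least 3 libraries (15251) were fitted with limma 3.58.1 (R 4.3.3) as group means over all 9 libraries, two-sided, with trended variances. Genes with a Benjamini-Hochberg adjusted p below 0.05 over all tested genes were called, and p-values in parentheses after gene folds are of this kind. Ratios were tested by exact permutation. The fit was tested on simulated data, where it recovered 38% to 39% of changes of 1 log2 unit and 74% to 79% of changes of 2. A missing call is therefore no sign that a difference is absent. GENCODE M21 (GRCm38) gave lengths, GC content and positions, with 95.6% of symbols matched. The length and GC trend was a spline with 5 degrees of freedom per term, removed from each library. The members and lists were chosen with earlier results of these data known. The text names all members, up to 3 called genes per list and comparison with the largest changes (or the gene with the largest difference where none was called), and some of the 3 genes most correlated with a member. Alternatives were other filters, a pseudocount of 1 CPM, median and quantile scaling, 6 libraries alone, array weights, a replicate block, the length and GC trend removed, and libraries left out.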

Additional observations from a re-analysis of the deposited data

How the results depend on the processing

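Over 20 alternatives for each member and comparison, 498 of 600 values kept their direction and side of the threshold, 59 gained a call, 31 lost one and 12 changed sign. The cause was not tested. In the order YSGr against SG, YSGnr against SG and YSGr against YSGnr, the members called numbered 2, 1 and 2. Array weights gave 8, 6 and 9 (8582, 7155 and 9410 of all genes, against 1608, 512 and 910), and leaving out YSGr replicate 3 and YSGnr replicate 1 together 8, 6 and 9 (7556, 8074 and 9867). With the length and GC trend removed, 4 were called in YSGr and 2 in YSGnr against SG (2016 and 745 of all genes). The same fit called 2 in YSGr against YSGnr (1695 of all genes). In YSGr against YSGnr, median scaling left 1 (316 of all genes), quantile normalization 1, and the 6 libraries alone 0 of the members and 0 of all genes by limma (1190 in YSGnr against SG). Leaving out single libraries gave 1 to 5, 0 to 3 and 0 to 8 members, and 328 to 4257, 19 to 3332 and 1 to 6528 of all genes.

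With the replicate number as a block, 2, 0 and 2 members and 1194, 341 and 860 of all genes were called, and with the block and the trend removed 1 in YSGr against YSGnr. Correlations of same-numbered libraries ran from -0.23 to 0.24, and those of differently numbered libraries from -0.25 to 0.23. The ranges were alike, and with 3 libraries a group they cannot show whether a shared number means a shared batch or litter.

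Signs changed in these values. With the trend removed, with or without the block, Gria1 and Gria2 in YSGnr against SG became 0.14 and 0.28. Grin2a in YSGnr against SG became -0.24 with array weights and -0.34 without YSGr replicate 3 and YSGnr replicate 1 together. Without single libraries, Gria2 and Gria4 in YSGr against SG ran from -0.038 to 0.49 and from -0.13 to 0.32, Grin2a and Gria1 in YSGnr against SG from -0.34 to 0.68 and from -0.25 to 0.0019, and Grin3a in YSGr against YSGnr from -0.23 to 0.012. Of the 5 ratios, 2, 2 and 0 did not overlap in the 3 comparisons, 2 to 4, 2 to 4 and 0 to 2 without single libraries, and 4 in YSGnr against SG with the trend removed. With 1 CPM added, Grin2a over Grin2b in YSGr against YSGnr became -0.21 and Grin2d over Grin2b in YSGnr against SG 0.049. With the trend removed, Grin2c over Grin2a in YSGr against SG became -0.28, and Gria2 over the other AMPA subunits 0.042, 0.32 and -0.28. Without single libraries, Grin2a over Grin2b in YSGr against YSGnr ran from -0.0027 to 0.31 and Grin2c over Grin2a in YSGr against SG from -0.46 to 0.34. Grin2d over Grin2b ran from -0.52 to 0.17, -0.17 to 0.18 and -0.49 to 0.20, and Gria2 over the others from -0.17 to 0.0026, -0.26 to 0.14 and -0.21 to 0.19. The reads behind Grin2a (23 to 65 in SG and YSGnr) limit its precision most.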
